A study of Arabidopsis thaliana with 5 samples.

Results

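Low-sulfur marker genes are transcripts that plants raise when sulfate runs short, and 9 of them were followed in roots of Arabidopsis thaliana. They were chosen by gene identifier from the 33557 features of the deposited tables: SDI1, SDI2, LSU1, LSU2, LSU3, LSU4, GGCT2;1, BGLU28 and SHM7. RNA came from root samples of the wild type Col-0 (3 libraries) and of plants of the genotype labelled GFP-GrxS5 (2 libraries), which names green fluorescent protein joined to the glutaredoxin GrxS5. The labels do not describe the construct, its promoter, the number of lines, the age of the plants or their sulfate supply, nor whether each library is from its own plants. The p-values therefore speak only of the spread among these libraries. The comparison asks which genes differ between these genotypes, in either direction. No library has GFP without GrxS5, so their parts in a difference cannot be told apart.

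Plants take up sulfate, reduce it to sulfide and build cysteine from it, and from cysteine come methionine, glutathione and the glucosinolates. When sulfur is short, the transcription factor SLIM1 (EIL3) and the accumulating cysteine precursor O-acetylserine are tied to a common set of raised transcripts. That set lowers sulfur use in glucosinolates, releases sulfur from stored compounds and includes small proteins that bind other proteins. SDI1 and its relative SDI2 are tetratricopeptide-repeat proteins, and SDI1 restrains MYB28, an activator of aliphatic glucosinolate synthesis. LSU1 to LSU4 are short plant-specific coiled-coil proteins, GGCT2;1 breaks down glutathione, BGLU28 is a beta-glucosidase that acts on glucosinolates, and SHM7 belongs to the serine hydroxymethyltransferase family.

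The LSU genes form 2 neighbouring pairs. LSU3 and LSU1 lie 2244 bases apart on chromosome 3, and LSU4 and LSU2 lie 2060 bases apart on chromosome 5. Their coding sequences are shown because an FPKM value per gene depends on telling the copies apart. Each runs in a single exon on the minus strand and was read from the RefSeq genome TAIR10.1. For LSU1, 3 coding variants are annotated, and the longest is shown and compared. Capitals mark the bases that differ from the neighbour of the same pair.
LSU1: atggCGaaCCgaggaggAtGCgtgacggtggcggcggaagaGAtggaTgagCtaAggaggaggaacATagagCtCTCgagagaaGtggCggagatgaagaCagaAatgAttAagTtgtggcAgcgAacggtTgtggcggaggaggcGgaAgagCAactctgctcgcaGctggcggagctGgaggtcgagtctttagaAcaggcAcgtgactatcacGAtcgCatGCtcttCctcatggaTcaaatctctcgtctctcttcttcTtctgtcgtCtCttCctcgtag
LSU3: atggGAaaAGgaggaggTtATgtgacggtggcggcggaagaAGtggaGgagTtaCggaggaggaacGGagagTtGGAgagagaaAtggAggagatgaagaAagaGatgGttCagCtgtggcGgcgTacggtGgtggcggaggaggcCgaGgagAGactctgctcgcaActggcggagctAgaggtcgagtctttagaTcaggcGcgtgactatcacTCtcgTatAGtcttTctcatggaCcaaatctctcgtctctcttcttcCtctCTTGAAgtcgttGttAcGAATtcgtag
LSU2: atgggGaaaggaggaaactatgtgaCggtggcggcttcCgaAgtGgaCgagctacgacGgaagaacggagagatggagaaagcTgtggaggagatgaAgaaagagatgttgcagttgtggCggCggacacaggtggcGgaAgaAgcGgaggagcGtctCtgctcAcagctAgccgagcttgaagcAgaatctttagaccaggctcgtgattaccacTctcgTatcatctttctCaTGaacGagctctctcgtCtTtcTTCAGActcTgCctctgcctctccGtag
LSU4: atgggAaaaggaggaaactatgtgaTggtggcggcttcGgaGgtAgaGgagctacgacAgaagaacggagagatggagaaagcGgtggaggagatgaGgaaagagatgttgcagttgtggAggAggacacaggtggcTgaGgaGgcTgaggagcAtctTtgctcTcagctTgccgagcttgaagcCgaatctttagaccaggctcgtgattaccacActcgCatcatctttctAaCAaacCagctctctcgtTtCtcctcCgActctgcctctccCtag
LSU1 (chr3:18375435-18375719) and LSU3 (chr3:18372659-18372952) were identical at 80.7% of aligned positions, with a longest shared run of 23 bases. LSU2 (chr5:8443472-8443756) and LSU4 (chr5:8440859-8441137) were identical at 87%, with a longest shared run of 30 bases. Across the pairs, identity ran from 69.1% to 76.5%. In none of the 6 comparisons did the coding sequences share a stretch of 50 bases. The sources used here do not state how reads matching more than 1 gene were counted.

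Several of these genes rested on few fragments. Steps in the low FPKM values of genes of 1500 to 4000 bases put the libraries at 3350000 to 4420000 fragments. The same steps in genes of 400 to 650 bases gave 2480000 to 3270000, so these totals are rough. On genes as short as the LSU genes 1 fragment was worth more, 0.537 to 0.857 FPKM. LSU1 and LSU3 thus rested on about 4 to 10 fragments in each library, and SDI1 on about 14 to 32. LSU4 rested on about 8 to 32, LSU2 on about 26 to 73, SDI2 on about 82 to 133 and SHM7 on about 138 to 258 fragments.

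GrxS5 itself had 3.06, 4.14 and 3.23 FPKM in wild-type roots and 103.5 and 124.4 FPKM in GFP-GrxS5, higher where the label names it. In all, 19693 genes were tested with limma on log2(FPKM + 1), and adjusted p stands below for its p-value after Benjamini-Hochberg adjustment over all of them, with a threshold of 0.05. By it 932 genes (4.73%) were higher and 462 (2.35%) lower in GFP-GrxS5, 7.08% together. Quantile normalization gave 789 higher and 648 lower genes. The 7 root markers were above 0 in every library, summed to 251.8 to 273.9 FPKM in wild-type roots and 282.3 to 296.4 FPKM in GFP-GrxS5, and none passed (limma, 1 higher and 1 lower at an unadjusted p under 0.05), though 1 was called lower under quantile normalization. The 9 shoot photosynthesis markers summed to 504 to 590 FPKM in wild-type roots and 1242 to 1247 FPKM in GFP-GrxS5, and 6 of the 7 tested rose. Of these, LHCB1.2 (limma adjusted p = 0.0426) lost its call under median-of-ratios scaling or quantile normalization and without any 1 of the Col-0 libraries. The carbonic anhydrase gene CA1 was the one marker listed at 0, in Col-0 replicate 2. The part of that rise in the values below was not tested. Kits and sequencers of 2 kinds are named in the labels but not tied to libraries, so that genotype and such a batch cannot be told apart.

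None of the low-sulfur markers passed the test in GFP-GrxS5 roots. Of the 9, 8 were tested and BGLU28 stayed below the filter of 1 FPKM in 2 libraries. By limma 0 of 8 were called, against 7.08% of all tested genes (4.73% higher and 2.35% lower). At an unadjusted p under 0.05 there were 5, all lower (GGCT2;1, SHM7, SDI2, LSU4 and LSU2). By that rule 24.3% of all tested genes were called and 10.2% were lower. The same 5 genes had both GFP-GrxS5 values under every Col-0 value, a separation shown by 20.3% of the tested genes. The log2 change was negative in 7 of 8 (and in 8 of 8 under median-of-ratios scaling or quantile normalization, where LSU1 turned), against 47.9% of all tested genes, and its median was -0.36 against 0.01 over all tested genes. In bulk roots, fewer cells of a type and less RNA per cell cannot be told apart.

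**Figure D1:**
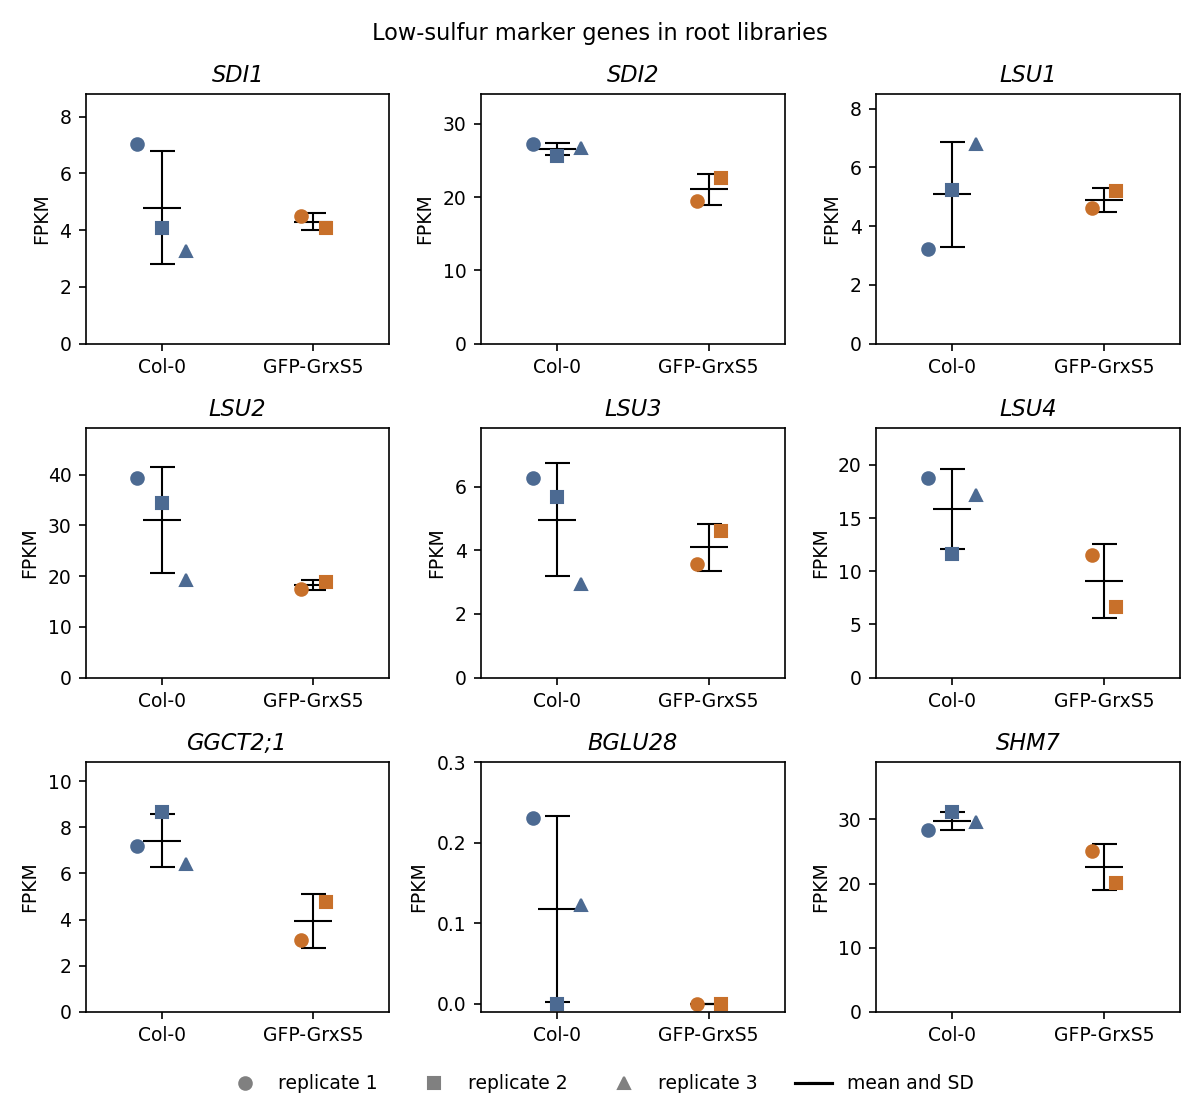
FPKM of each of the 9 low-sulfur markers in the 3 Col-0 (blue) and 2 GFP-GrxS5 (orange) libraries, with symbols for the replicate number and black lines for the mean and SD of each group. GFP-GrxS5 points lie below all Col-0 points for SDI2, LSU2, LSU4, GGCT2;1 and SHM7 and within the Col-0 range for SDI1, LSU1 and LSU3, and each panel has its own scale.

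SDI1 (AT5G48850; chromosome 5, 19805437 to 19807759 on TAIR10) had 7.04, 4.08 and 3.25 FPKM in Col-0 replicates 1 to 3 and 4.51 and 4.08 FPKM in GFP-GrxS5 replicates 1 and 2. Both GFP-GrxS5 values fell inside the Col-0 range, and Col-0 replicate 1 was the highest of the 5. The log2 change was -0.08 (95% interval -0.73 to 0.57; limma adjusted p = 0.896), and it was 0.19 without Col-0 replicate 1.

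SDI2 (AT1G04770; chromosome 1, 1336371 to 1337849) stood higher, at 27.3, 25.7 and 26.6 FPKM in wild-type roots and 19.5 and 22.6 FPKM in GFP-GrxS5. The groups did not overlap, and the Col-0 libraries were close together at 26.5 ± 0.795 (SD, n = 3). The log2 change was -0.32 (95% interval -0.56 to -0.08; limma adjusted p = 0.108). SDI2 was 3.87 to 8.19 times as high as SDI1 in FPKM in each of the 5 libraries.

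Among the LSU genes, LSU2 (AT5G24660; chromosome 5, 8443279 to 8443834) was the highest in every library. It had 39.4, 34.4 and 19.3 FPKM in wild-type roots and 17.5 and 18.9 FPKM in GFP-GrxS5. Col-0 replicate 3 thus sat next to the GFP-GrxS5 libraries, far from the other two Col-0 libraries. The log2 change was -0.68 (SE 0.27; limma adjusted p = 0.176). Without Col-0 replicate 3 it was -0.98 and passed (limma adjusted p = 0.0137). With the replicate block, which leaves Col-0 replicate 3 no partner, it was also -0.98 and passed (adjusted p = 0.0226, from 0.0137 to 0.402 across the alternatives).

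LSU4 (AT5G24655; chromosome 5, 8440694 to 8441218), the neighbour of LSU2, had 18.8, 11.6 and 17.2 FPKM in wild-type roots and 11.5 and 6.63 FPKM in GFP-GrxS5. Col-0 replicate 2 and GFP-GrxS5 replicate 1 all but touched. The value of 6.63 FPKM rested on about 8 fragments. Its estimated log2 change was -0.76 (SE 0.26; limma adjusted p = 0.131), and it was -0.40 without GFP-GrxS5 replicate 2 and -1.12 without GFP-GrxS5 replicate 1. The neighbours did not share a pattern over the Col-0 libraries: LSU2 was lowest in replicate 3 and LSU4 in replicate 2, and the ratio of LSU2 to LSU4 in FPKM ran from 1.12 to 2.97.

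The chromosome 3 pair was lower. LSU1 (AT3G49580; chromosome 3, 18375269 to 18375784) had 3.22, 5.23 and 6.80 FPKM in wild-type roots and 4.61 and 5.19 FPKM in GFP-GrxS5. LSU3 (AT3G49570; chromosome 3, 18372533 to 18373024) had 6.27, 5.66 and 2.94 FPKM in wild-type roots and 3.57 and 4.62 FPKM in GFP-GrxS5. In both genes the GFP-GrxS5 values lay inside the Col-0 range, and in Col-0 the library highest for one gene was the lowest for the other. The log2 changes were 0.00 for LSU1 (95% interval -0.62 to 0.62) and -0.18 for LSU3 (95% interval -0.85 to 0.49; limma adjusted p = 0.999 and 0.738). Differences inside these intervals were not detectable with these 5 libraries.

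Summed over the 4 LSU genes, FPKM came to 67.6, 56.9 and 46.2 in the Col-0 libraries and to 37.3 and 35.4 in those of GFP-GrxS5. LSU2 made up 41.7% to 60.5% of that sum in the 5 libraries.

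GGCT2;1 (AT5G26220; chromosome 5, 9162969 to 9164685) had the lowest p of the set. It had 7.19, 8.66 and 6.43 FPKM in wild-type roots and 3.12 and 4.77 FPKM in GFP-GrxS5, with no overlap. About 25 to 30 fragments stood behind each Col-0 value and about 13 to 15 behind each GFP-GrxS5 value. For GGCT2;1 the log2 change was -0.78 (95% interval -1.27 to -0.30; limma adjusted p = 0.0682, from 0.051 to 0.248 across the alternatives). Its paralogs GGCT2;2 and GGCT2;3, which also degrade glutathione, stood higher at 128.5 ± 7.01 and 24.6 ± 1.68 FPKM in wild-type roots and 135.6 ± 15.0 and 29.3 ± 3.73 FPKM in GFP-GrxS5 (SD, n = 3 and n = 2) and missed the threshold (adjusted p = 0.667 and 0.247, limma). In the files each of these paralogs shares its span with a further gene.

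BGLU28 (AT2G44460; chromosome 2, 18346439 to 18349966) was near the floor. It was listed at 0.231, 0 and 0.122 FPKM in Col-0, about 2, 0 and 1 fragments, and at 0 in both GFP-GrxS5 libraries. No fold is given for it. Its chromosome 2 neighbour BGLU29 was listed at 0 in every library.

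SHM7 (AT1G36370; chromosome 1, 13696042 to 13698639) had 28.4, 31.2 and 29.5 FPKM in wild-type roots and 25.1 and 20.05 FPKM in GFP-GrxS5. The groups did not overlap, and GFP-GrxS5 replicate 2 was the lower of its pair. Its estimated log2 change was -0.39 (95% interval -0.66 to -0.11; limma adjusted p = 0.096). SHM4, a family member that makes the cytosolic enzyme, had 448 ± 10.7 FPKM in Col-0 (SD, n = 3) and 337 ± 5.50 in GFP-GrxS5 (SD, n = 2), a fall with a limma adjusted p of 0.0108 and a call lost without either GFP-GrxS5 replicate (0.0555 to 0.0628). It was the one call among 9 tested paralogs of the markers, whose median log2 change was -0.04. Over all tested genes 7.08% were called.

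In Col-0, by mean FPKM, LSU2 (31.0 ± 10.5), SHM7 (29.7 ± 1.395) and SDI2 (26.5 ± 0.795) came first, within the spread of LSU2, followed by LSU4 (15.8 ± 3.75) and GGCT2;1 (7.43 ± 1.14; SD, n = 3 throughout). LSU1, LSU3 and SDI1 followed at 5.08 ± 1.79, 4.96 ± 1.77 and 4.79 ± 1.99 FPKM and did not differ beyond their spread. In GFP-GrxS5, SHM7 (22.6 ± 3.56), SDI2 (21.0 ± 2.14) and LSU2 (18.2 ± 0.972) were again the upper 3, LSU4 came next at 9.09 ± 3.47, and LSU1, SDI1, LSU3 and GGCT2;1 lay between 3.94 and 4.90 FPKM (SD, n = 2). The order of these lower 4 was not the same in each library: GGCT2;1 was under LSU1 in Col-0 replicate 3 and above LSU3 and SDI1 in GFP-GrxS5 replicate 2, and its GFP-GrxS5 mean of 3.94 ± 1.17 FPKM (SD, n = 2) lay within that SD of the other 3 means.

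**Figure D2:**
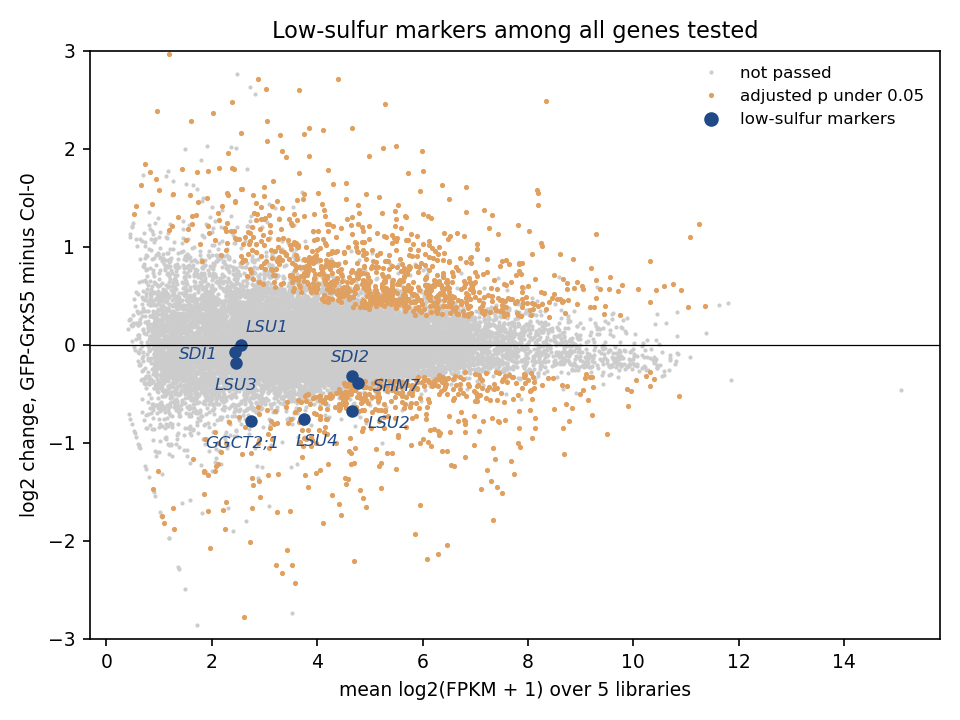
Log2 change between GFP-GrxS5 and Col-0 (vertical, log2(FPKM + 1) scale) against mean log2(FPKM + 1) over the 5 libraries (horizontal) for all genes tested, with the 8 tested low-sulfur markers in blue and genes past the threshold in orange. The markers lie between -0.78 and 0.00, among genes of similar level of which some passed and others did not, and 26 genes with larger changes fall outside the plotted range.

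Among the genes whose profiles over the 5 libraries were nearest to SDI1 were AT5G54400 and AT4G27852, at root mean square distances of 0.061 and 0.076 between centred log2(FPKM + 1) values. Both were highest in Col-0 replicate 1, as was SDI1, and had 0.615 to 4.45 FPKM over the libraries. They were chosen by that distance among the tested genes, so the shared peak follows from the choice.

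The promoters of GGCT2;1 and LSU4, the markers with the most negative log2 changes in the fit to all 5 libraries, are shown as the 250 bases before the start annotated by RefSeq, both on the minus strand. Capitals mark GTCTC, the reverse complement of GAGAC, which is the core of the sulfur-responsive element.
GGCT2;1: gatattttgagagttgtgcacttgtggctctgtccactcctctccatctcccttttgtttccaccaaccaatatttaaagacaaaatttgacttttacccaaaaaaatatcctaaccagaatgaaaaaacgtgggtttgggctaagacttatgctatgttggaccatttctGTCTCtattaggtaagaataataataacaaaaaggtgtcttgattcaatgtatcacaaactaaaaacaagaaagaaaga
LSU4: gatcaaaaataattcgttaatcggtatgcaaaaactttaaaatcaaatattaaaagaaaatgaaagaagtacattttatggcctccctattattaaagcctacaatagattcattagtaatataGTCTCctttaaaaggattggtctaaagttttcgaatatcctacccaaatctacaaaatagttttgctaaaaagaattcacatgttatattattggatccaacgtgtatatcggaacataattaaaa
They lie at chr5:9164885-9165134 and chr5:8441365-8441614 of TAIR10.1. GAGAC was found, on either strand, in 4 of the 9 marker promoters (SDI1, LSU4, GGCT2;1 and BGLU28) and in 25.7% of 26684 promoters of protein-coding genes. The choice of promoters shown rests on that fit: LSU2, whose window has no GAGAC, had the most negative log2 change with the replicate block and without Col-0 replicate 3, a more negative one than LSU4 without GFP-GrxS5 replicate 2 and than GGCT2;1 without GFP-GrxS5 replicate 1. ATGTA, the core bound by the EIN3 and EIL family to which SLIM1 belongs, was in 6 of 9 and in 52.2% of all. TGACG, the core bound by TGA factors, was in 2 of 9 (SDI1 and SDI2) and in 18.6% of all. No match of one motif overlapped a match of another. These are matches of letters in a window, not sites. The windows depend on the RefSeq starts, and only that of SDI2 adjoins the gene as the deposited coordinates place it. By those coordinates GGCT2;1, LSU4 and LSU2 end at 9164685, 8441218 and 8443834. Their windows, that of LSU2 being chr5:8444102-8444351, start beyond these ends. Windows of SDI1, LSU1, LSU3, BGLU28 and SHM7 also lie apart from the genes. The bases between were not searched, so a motif missing from a window may lie there.

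The rest of the sulfur pathway had called genes in both directions. Of 16 tested genes of sulfate reduction and cysteine synthesis 4 fell, 2 rose and 10 did not pass, with a median log2 change of -0.03. Over all tested genes 2.35% were called lower and 4.73% higher. APR1, which reduces activated sulfate, fell from 118.6, 100.9 and 87.9 FPKM in Col-0 to 59.4 and 49.3 FPKM in GFP-GrxS5 (limma adjusted p = 0.0112). That call was lost without GFP-GrxS5 replicate 2 and also without a variance trend. Also lower were APR2 (56.4 ± 5.15 FPKM in Col-0, 37.2 ± 2.19 in GFP-GrxS5), the ATP sulfurylase gene ATPS1 (314 ± 14.8 and 231.0 ± 13.6) and the sulfite reductase gene SIR (217 ± 2.41 and 176 ± 1.83), with SD over 3 and 2 libraries and limma adjusted p of 0.0169, 0.0149 and 0.0289. APR2 and ATPS1 lost their calls without Col-0 replicate 2 or either GFP-GrxS5 replicate (limma adjusted p from 0.0533 to 0.105), and SIR without any 1 of the 5 libraries (0.081 to 0.111). APR3, which is raised with the markers when O-acetylserine accumulates, had 70.6, 82.5 and 72.1 FPKM in wild-type roots and 61.8 and 60.9 FPKM in GFP-GrxS5 and missed the threshold (adjusted p = 0.107, limma). The files give APR2, APR3 and SERAT3;2 a span that each shares with a further gene. The serine acetyltransferase genes SERAT1;1 and SERAT3;1, of the step that makes O-acetylserine, rose. SERAT1;1 had 142 ± 7.10 and 178 ± 3.49 FPKM in wild-type roots and GFP-GrxS5, and SERAT3;1 had 9.04 ± 1.72 and 16.3 ± 0.905 (adjusted p of 0.0361 and 0.0306 in limma). The other 3 serine acetyltransferase genes, SERAT2;1, SERAT2;2 and SERAT3;2, did not pass (limma adjusted p = 0.548, 0.868 and 0.654). All were named after their values were seen, and SERAT1;1 lost its call without any 1 of the 5 libraries and SERAT3;1 without any of them other than Col-0 replicate 3 (limma adjusted p from 0.0649 to 0.153).

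Of 10 tested sulfate transporter genes 2 fell, 0 rose and 8 did not pass (limma, 3 lower and 2 higher at an unadjusted p under 0.05). Over all tested genes 2.35% were called lower and 4.73% higher, and 10.2% and 14.1% at the unadjusted p. Without a variance trend 1 sulfate transporter gene passed as higher. SULTR3;5 went down from 36.1 ± 0.421 to 19.1 ± 0.610 FPKM and SULTR2;1 from 14.8 ± 1.35 to 8.22 ± 1.71, with adjusted p of 0.00245 and 0.0276 in limma (SD over 3 and 2 libraries). The SULTR2;1 call was lost without any 1 of the 5 libraries (limma adjusted p from 0.0536 to 0.129). The root uptake transporter gene SULTR1;1, itself a strong low-sulfur marker, had 2.20, 2.77 and 3.03 FPKM in wild-type roots and 3.43 and 3.30 FPKM in GFP-GrxS5 (limma adjusted p = 0.481). Its GFP-GrxS5 values lay above all Col-0 values, a separation shown by 22.6% of the tested genes.

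**Figure D3:**
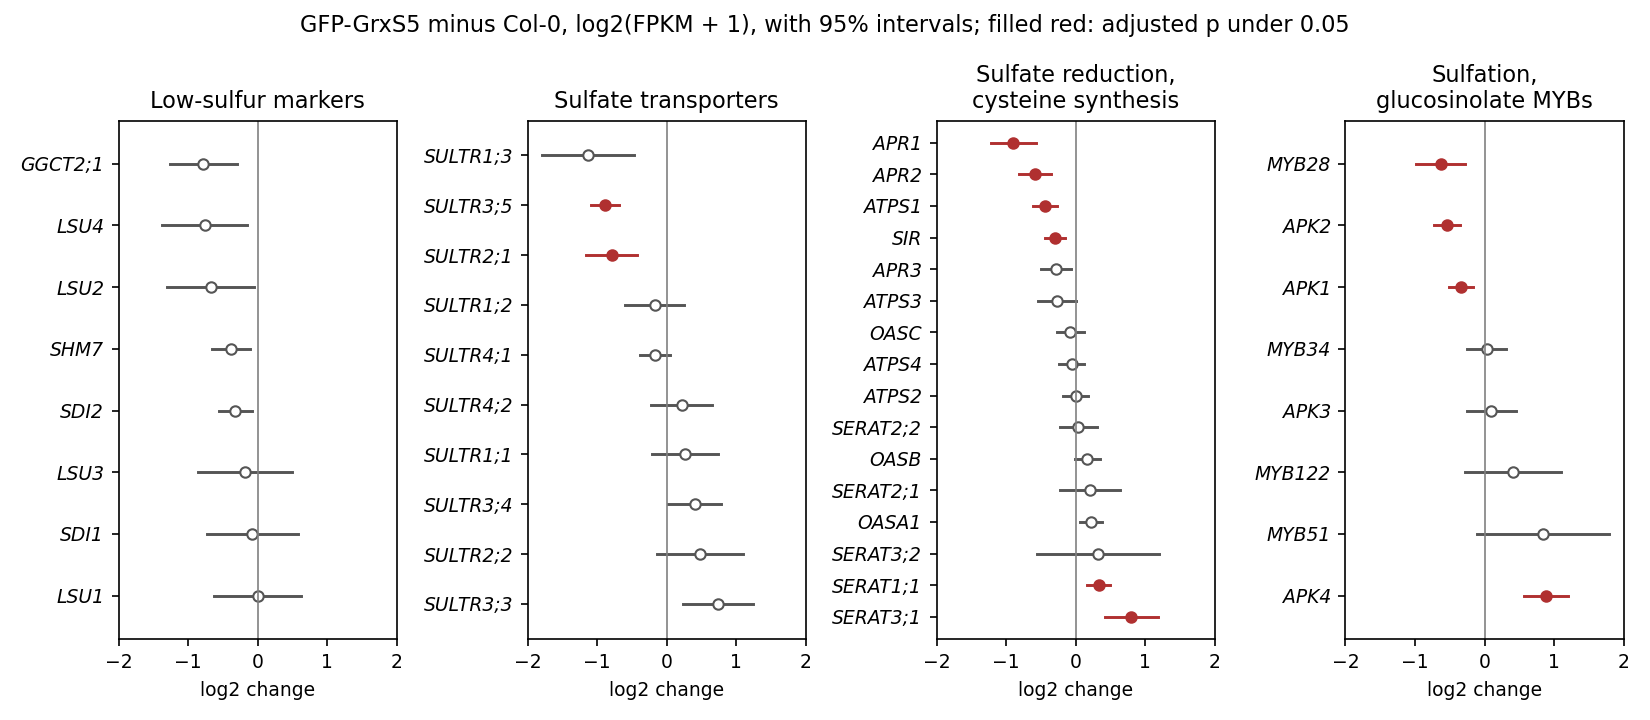
Log2 change (GFP-GrxS5 minus Col-0, log2(FPKM + 1) scale) with its 95% interval for tested genes of 4 lists, filled red where the limma adjusted p is under 0.05. None of the 8 low-sulfur markers is filled, while 2 sulfate transporters, 6 genes of sulfate reduction and cysteine synthesis and 4 genes of sulfation and its regulators are.

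Of 8 tested genes of sulfation and glucosinolate regulation 3 fell and 1 rose, against 2.35% lower and 4.73% higher among all tested genes. The kinase genes APK1 and APK2, which make the sulfate donor for glucosinolates, were the lower ones besides MYB28. APK1 had 97.5 ± 3.83 FPKM in wild-type roots and 76.8 ± 1.92 in GFP-GrxS5, APK2 had 111.5 ± 7.15 and 76.1 ± 2.40, and APK4, which rose, had 5.96 ± 0.293 and 11.8 ± 0.295. Their limma adjusted p were 0.0346, 0.00984 and 0.0111. APK2 and APK4 lost their calls without either GFP-GrxS5 replicate (limma adjusted p from 0.0567 to 0.0829) and APK1 without any 1 of the 5 libraries (0.0679 to 0.137). MYB28, the regulator that SDI1 restrains, fell from 59.4, 46.8 and 50.3 FPKM to 28.6 and 38.4 FPKM (limma adjusted p = 0.0493). Leaving out any 1 of the 5 libraries ended that call, as did pseudocounts of 0.1 and 0.5. SLIM1 had 11.2, 10.3 and 11.1 FPKM in wild-type roots and 9.47 and 9.40 FPKM in GFP-GrxS5, and none of the 4 tested sulfur response regulators passed (limma, 0 at an unadjusted p under 0.05). Both glutathione synthesis genes also did not pass (limma, 0 at an unadjusted p under 0.05). Of 5 genes for proteins that LSU proteins bind or relatives of them, the catalase gene CAT3 rose, with 364 ± 18.6 FPKM in Col-0 (SD, n = 3) and 669 ± 5.34 in GFP-GrxS5 (SD, n = 2; adjusted p = 9.73e-04 in limma), and the other 4 did not pass. At an unadjusted p under 0.05 there were 3 of the 5 higher, CAT3, CAT1 and NBR1, as were 14.1% of all tested genes.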

How the data were processed

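The authors deposited 1 table of FPKM, a fragment count scaled to gene length and library total, for each library, with 33557 features. TAIR10 is the build named in the submitters' processing notes. Aligner, quantifier and strand use are not given in the sources. Gene coordinates are those of the files, counted from 1, and sequences, strands and exons come from RefSeq TAIR10.1 by gene identifier, on which 50.2% of 32813 nuclear genes share a start or end with the files. Fragment numbers are estimates: the mode of FPKM times length over low genes with 1 transcript was taken as 1 fragment, for each marker over genes within 20% of its length. Whole counts were not recovered, so no count model was fitted.

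Genes with at least 1 FPKM in at least 2 of 5 libraries and status OK in all were kept, which left out 2 features for their status. A 2-group linear model was fitted to log2(FPKM + 1), without rescaling, in limma 3.58.1 under R 4.3.3 (two-sided, variance trend on expression). Benjamini-Hochberg adjustment ran over 19693 genes, with a threshold of 0.05. Fold changes on this scale understate the change of low genes. Alternatives were other pseudocounts, filters, scalings and variance models, a replicate block and leaving out each library, 13 in all. Coding sequences were aligned globally with Biopython 1.88.

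The markers, gene lists and tests were chosen with earlier results of these data known. The text names all markers, GrxS5, SLIM1, APR3, SULTR1;1, at most 4 called genes of each list by p, and, of the 3 genes nearest to SDI1, all but 1, which is not reported here. Other genes named, which are paralogs, cell type markers, the serine acetyltransferase genes, CAT1 and NBR1, were added after their values were seen. Lists use common names for genes the files call otherwise, such as EIL3 for SLIM1, AT1G04770 for SDI2 and AT5G26220 for GGCT2;1.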

Additional observations from a re-analysis of the deposited data

How the results depend on the processing

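Over 13 alternatives no marker passed, except LSU2, the 1 marker called lower with the replicate block and without Col-0 replicate 3, so that the count of lower markers ran from 0 to 1 over the fits without 1 library. SDI1 had too few libraries at 5 FPKM to be tested with that filter. The sign of LSU1, with a log2 change of 0.00, turned under median-of-ratios scaling (-0.012) and quantile normalization (-0.044), and ran from -0.24 to 0.20 over the fits without 1 library. Over those fits SDI1 ran from -0.27 to 0.19, LSU3 from -0.46 to -0.02 and SHM7 from -0.54 to -0.23. Fits without 1 library have fewer samples, and the cause of the other shifts was not tested. Over all genes 398 were higher and 184 lower without a variance trend, and 418 and 176 with the replicate block. Without a variance trend no gene of sulfate reduction and cysteine synthesis was called, and no gene of sulfation and its regulators was called lower. Without 1 library, 225 to 585 were higher and 141 to 235 lower. Lower calls in the lists were taken over the main fit and all alternatives that kept both GFP-GrxS5 libraries. They ran from 0 to 4 in sulfate reduction and cysteine synthesis and from 1 to 2 among sulfate transporters. In sulfation and its regulators they ran from 0 to 3, and among paralogs of the markers from 0 to 1. Over the same fits higher calls ran from 0 to 2, from 0 to 1 and from 0 to 1 in the first 3 of these lists. Deviations of same-numbered libraries correlated at -0.039 and -0.008 over genes. The deviations of the 2 GFP-GrxS5 libraries from their mean mirror each other, so these values cannot show or exclude a shared batch. The labels describe no pairs, and the numbers were not taken as pairs. LSU1, LSU3 and BGLU28 rested on the fewest fragments, at most about 10 in any library.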

Other observations

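The precursor genes of the microRNA miR395, which targets sulfate transporter and ATP sulfurylase transcripts and is raised by low sulfur, are listed in the files as MIR395A to MIR395F. Each was listed at 0 FPKM in every one of the 5 libraries. Whether these libraries capture such precursors was not tested. The listed values therefore do not show that miR395 was absent, and say nothing of the sulfur state of the roots.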
